A study of Mus musculus with 6 samples.

Results

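Serpins are a family of proteins that mostly inhibit serine proteases, and the results here describe every protein-coding mouse gene whose symbol begins with Serpin. A serpin exposes a flexible reactive centre loop as bait, and the protease that cleaves it is trapped in a covalent complex in which both proteins are spent. Letters in the symbols stand for clades: clade A holds secreted proteins such as antitrypsin and antichymotrypsin, clade B holds intracellular inhibitors, and clades C to I hold inhibitors of coagulation, plasminogen activation and complement as well as members that do not inhibit proteases. In nervous tissue the family is known for Serpina3n, a gene that reactive astrocytes and other glia switch on after injury, and for neuroserpin, which restrains tissue plasminogen activator around neurons.

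By this rule 61 genes were members, next to 33676 genes of any kind with a listed transcript in the whole table. At least 1 transcript was listed for 47 of the members, and the other 14 (Serpina1c, Serpina1d, Serpina1e, Serpina3b, Serpina7, Serpina12, Serpina16, Serpinb1b, Serpinb2, Serpinb3b, Serpinb3c, Serpinb9f, Serpinb9g and Serpinb11) were not analysed here. Of the 47, 16 had a count of 0 in all 6 libraries, 16 had counts that were too low for the filter on low counts, and 15 were tested. Every annotated transcript was listed for 18 members and for 5 of the tested ones (Serpina3n, Serpina9, Serpinb9, Serpine3 and Serping1). For the other tested members the counted part of the gene depends on which transcripts the table lists. Another 7 genes with a Serpin symbol are pseudogenes or of another type and were left out.

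RNA came from the modiolus of C57BL/6 mice, the central pillar of the cochlea in which the spiral ganglion neurons (SGNs) lie. The study describes males injected at 8 weeks of age. In the degenerated group (3 libraries) SGN degeneration was induced by 1 g/kg kanamycin given under the skin and then 0.4 g/kg furosemide into the abdomen, a drug pair that kills hair cells, and in the control group (3 libraries) mice received saline. The study places this comparison on day 30 after injection. The sources used here do not say whether a library is 1 animal or a pool, so the p-values measure the spread between these libraries, which may be technical in part. The labels call the samples spiral ganglion neurons, but the modiolus also holds Schwann cells, vessels, bone and marrow. In bulk RNA, fewer cells of a type and less RNA per cell cannot be told apart.

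Totals of the listed transcripts lay between 12480876 and 15549319 counts per library. The SGN marker list was detected, with 14 of 15 markers tested, and its summed level was 11593 to 15003 CPM (counts scaled to a common library total after TMM normalization) in controls and 6960.3 to 10274 CPM in degenerated libraries. Markers of blood and marrow were uneven: neutrophil markers summed to 248, 13509 and 6674 CPM in control replicates 1, 2 and 3 and to 637, 1946 and 4675 CPM in degenerated replicates 1, 2 and 3, and erythroid markers to 4524, 31079 and 15858 CPM and to 5245, 2518 and 12106 CPM. Skeletal muscle markers summed to 377 CPM in control replicate 3 and to at most 7.07 CPM elsewhere. Below, values per library are always given in the order control replicates 1, 2, 3 and then degenerated replicates 1, 2, 3, and upregulated means higher in degenerated libraries.

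Serpina3n was the 1 member that was called upregulated. Its CPM were 5.76, 4.60 and 12.8 in the controls and 134, 111 and 49.6 in the degenerated libraries. Every degenerated library lay above every control, the lowest (degenerated replicate 3) at several times the highest (control replicate 3). These CPM rest on 87, 65 and 200 counts against 1955, 1573 and 629 counts, all from the only annotated transcript, Serpina3n-201. Means were 7.71 ± 4.42 CPM (SD, n = 3) and 98.1 ± 43.5 CPM (SD, n = 3), a 12.7-fold difference, or 3.67 on the log2 scale (standard error, SE, 0.573). In edgeR's quasi-likelihood test the unadjusted p was 0.000688 and the Benjamini-Hochberg adjusted p over all genes 0.211. With DESeq2 the adjusted p was 7.96e-09 and with edgeR's exact test 4.06e-06, while it lay between 0.102 and 0.602 under the other alternatives run.

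Calls follow criteria that the study states for another of its comparisons, between knockout and wild-type mice. They ask for an unadjusted p under 0.01 and a log2 fold change beyond 0.2 in either direction. For the comparison made here its text states no criteria. Serpina3n was the only called member of the 15 tested, and no member was called downregulated. Over all 14118 genes tested, 2.73% were called, 2.01% as upregulated and 0.715% as downregulated. The share of tested members called, 6.67%, therefore rests on a single gene and is not a result about the family. At an adjusted p under 0.05, edgeR's quasi-likelihood test called 0 genes in all, against 1367 genes (9.68%) and 3 members at an unadjusted p under 0.05. DESeq2 called 383 genes at that adjusted p and the exact test 115, with Serpina3n as the only member in each, and limma-voom called 0.

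**Figure D1:**
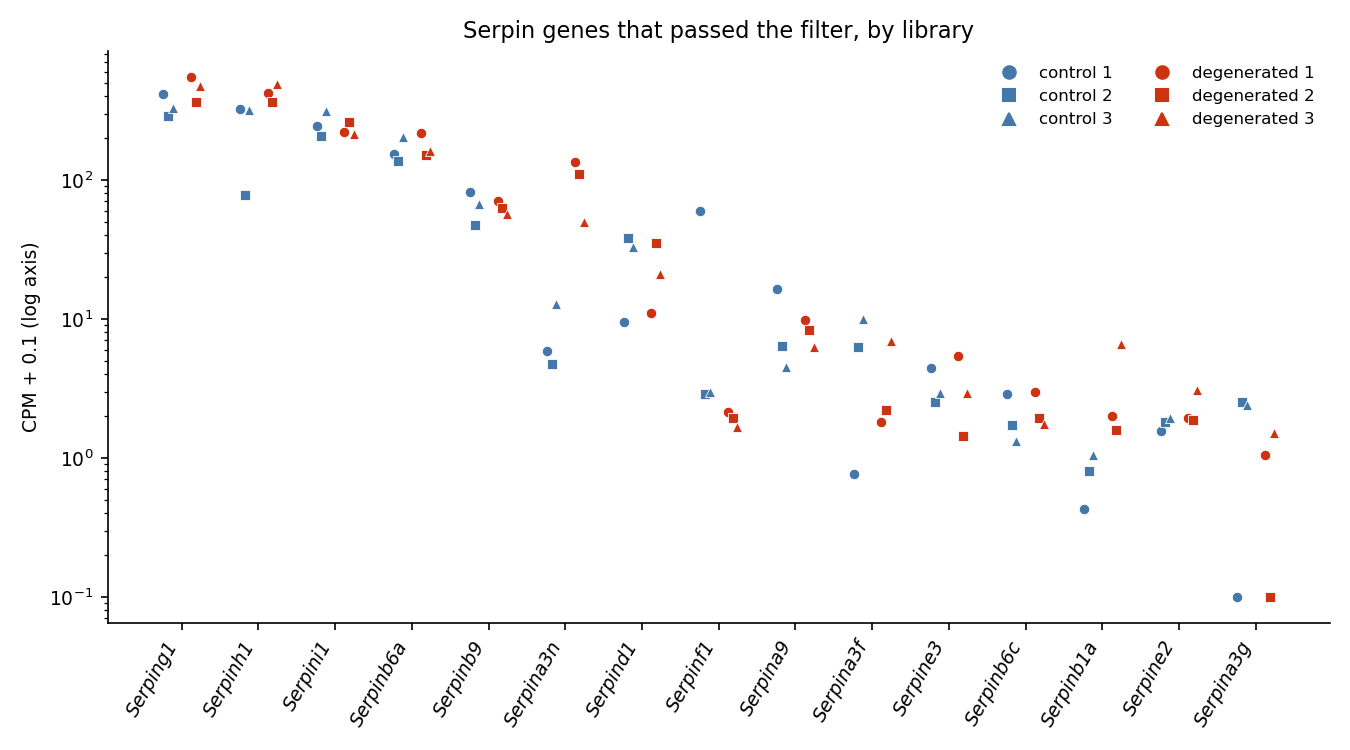
CPM plus 0.1 on a log axis for the 15 serpin genes that passed the filter on low counts, ordered by mean level, with blue symbols for the 3 control and red symbols for the 3 degenerated libraries (circle, square and triangle for replicates 1, 2 and 3). Serpina3n moves from 4.60 to 12.8 CPM in controls to 49.6 to 134 CPM in degenerated libraries, while Serping1, Serpini1, Serpinb6a and Serpinb9 keep overlapping groups.

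As a group the tested members did not lean to one side. Log2 fold changes were above 0 in 7 and below 0 in 8, with a median of -0.02, next to a median of -0.003 over all genes tested. Groups did not overlap in CPM for 3 members that were higher in degenerated libraries (Serpina3n, Serpinb1a and Serpinh1) and 1 that was lower (Serpinf1), where 10.3% and 7.37% of all genes tested showed such a separation. All listed members together made up 1329, 826 and 1316 CPM in controls and 1657, 1381 and 1498 CPM in degenerated libraries. Without Serpina3n the sums were 1149 ± 284 CPM and 1414 ± 130 CPM (SD, n = 3), and control replicate 2 was the lowest library of both sums.

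**Figure D2:**
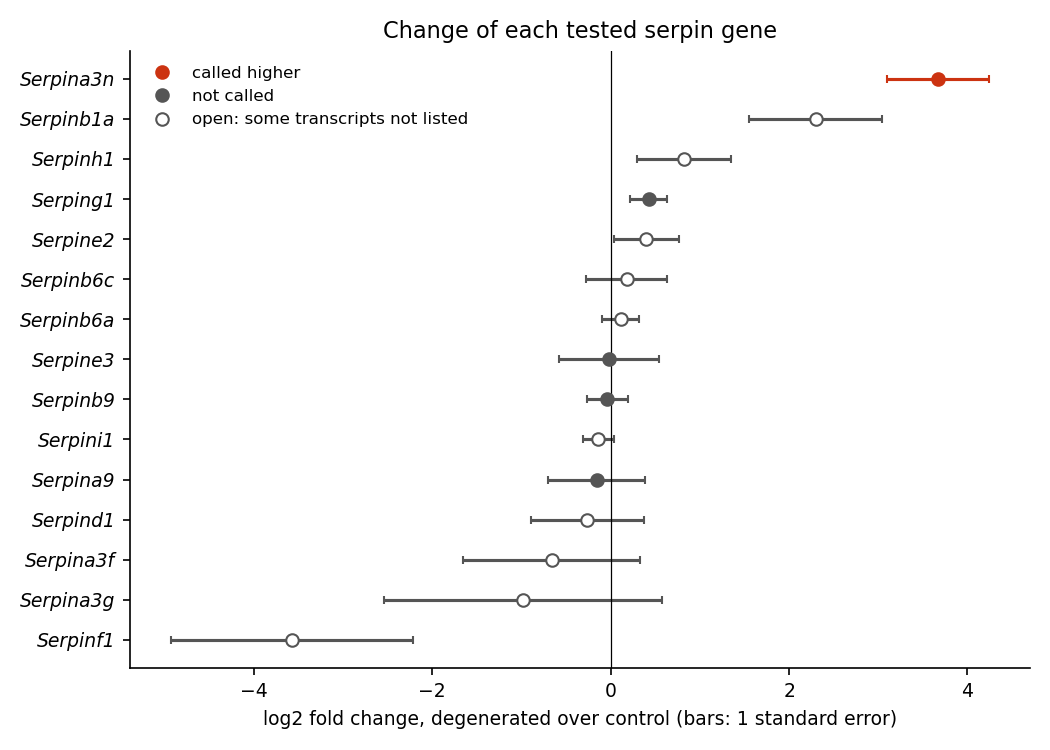
Log2 fold change (degenerated over control) of each of the 15 tested serpin genes, with bars of 1 standard error, the called gene in red and open symbols for genes with some transcripts not listed. Serpina3n stands at 3.67 ± 0.573, Serpinb1a at 2.30 ± 0.748 and Serpinf1 at -3.57 ± 1.36, and the bars of Serpinb6a, Serpinb6c, Serpinb9, Serpine3, Serpini1, Serpina9, Serpind1, Serpina3f and Serpina3g cross 0.

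Serpina3n lies at the end of a cluster of clade A genes on chromosome 12 (GRCm38, chr12:104406729-104414329, + strand, ENSMUSG00000021091), which holds all 23 members annotated there. Its nearest relatives, Serpina3a to Serpina3m, arose by duplication in rodents, where humans have the single antichymotrypsin gene SERPINA3. Coding sequences of the relatives are 79.1% to 86.0% identical to that of Serpina3n over aligned bases, and their proteins 66.3% to 79.2% identical. The reactive centre loop decides which protease is bound. The stretch that encodes it is shown for Serpina3n and each relative with any count, because reads of such similar genes could be assigned to the wrong member. All sequences are the coding strand, 5′ to 3′, from the hinge of the loop in Serpina3n to the proline and phenylalanine after it, or the codons aligned with these in each relative, taken from GENCODE M21 transcripts. Capitals mark bases that differ from Serpina3n or have no partner in it, counted over the length of each stretch.
Serpina3n: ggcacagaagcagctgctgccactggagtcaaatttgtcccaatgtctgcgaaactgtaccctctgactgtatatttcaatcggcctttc
Serpina3f: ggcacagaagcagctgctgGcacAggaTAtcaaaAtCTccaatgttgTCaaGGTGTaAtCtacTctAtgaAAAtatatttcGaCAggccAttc
Serpina3g: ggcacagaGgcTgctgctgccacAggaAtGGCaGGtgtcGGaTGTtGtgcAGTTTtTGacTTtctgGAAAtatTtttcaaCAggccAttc
Serpina3m: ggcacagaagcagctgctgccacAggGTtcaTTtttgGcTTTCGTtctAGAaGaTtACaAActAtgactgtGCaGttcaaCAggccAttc
Serpina3c: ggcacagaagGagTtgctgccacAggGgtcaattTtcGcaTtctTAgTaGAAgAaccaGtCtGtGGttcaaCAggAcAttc
Serpina3i: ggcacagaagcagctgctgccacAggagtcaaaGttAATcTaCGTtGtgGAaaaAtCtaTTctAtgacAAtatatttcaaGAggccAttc
Serpina3k: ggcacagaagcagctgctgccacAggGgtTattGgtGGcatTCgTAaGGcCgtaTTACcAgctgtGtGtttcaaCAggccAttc
The Serpina3n stretch is 90 bases within 1 exon, at chr12:104413448-104413537 (+). Other positions (GRCm38) are chr12:104220245-104220337 (+) for Serpina3f, chr12:104241072-104241161 (+) for Serpina3g, chr12:104393769-104393858 (+) for Serpina3m, chr12:104147307-104147387 (-) for Serpina3c, chr12:104268480-104268569 (+) for Serpina3i and chr12:104345269-104345352 (+) for Serpina3k. Differing bases number 25 in Serpina3f, 32 in Serpina3g, 28 in Serpina3m, 23 in Serpina3c, 22 in Serpina3i and 23 in Serpina3k, so the loop differs at many positions along its length. Over the whole of transcript Serpina3n-201, 6.90% of its 50-base windows and 0.204% of its 100-base windows occur exactly in transcripts of other genes. The other windows occur in Serpina3n only.

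No relative was called, and the difference between Serpina3n and each relative was not tested. Serpina3f stood at 0.662, 6.23 and 9.89 CPM in controls and 1.71, 2.11 and 6.79 CPM in degenerated libraries, and Serpina3g, which restrains cathepsins in lymphocytes, at 0, 2.41 and 2.30 CPM and 0.958, 0 and 1.42 CPM. Their groups overlapped, with log2 fold changes of -0.66 (SE 0.997, unadjusted p 0.531, adjusted p 0.863 in edgeR's test) and -0.98 (SE 1.56, unadjusted p 0.552, adjusted p 0.870). Both were higher in control replicates 2 and 3 and degenerated replicate 3 than in the other libraries. These are also the 3 libraries with the most neutrophil and erythroid marker RNA, whose part in these levels was not tested. Only a transcript of Serpina3g without its full coding sequence (Serpina3g-202) carried its counts, and 35.3% of that transcript's 50-base windows occur in transcripts of other genes, so its level is uncertain.

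Other A3 genes were near or at 0. Serpina3c had 12, 3 and 4 counts in controls and 6, 0 and 0 in degenerated libraries, and Serpina3i 0, 6 and 16 counts and 5, 0 and 7 counts. Serpina3k, a kallikrein-binding protein made by the liver, had 67 counts in degenerated replicate 2 and none elsewhere, and Serpina3m 9 and 19 counts in degenerated replicates 1 and 2 only. Serpina3a and Serpina3j were listed with 0 counts. Summed over the listed relatives, the A3 genes other than Serpina3n gave 1.46, 9.27 and 13.5 CPM in controls and 4.04, 8.17 and 8.76 CPM in degenerated libraries. In controls this sum lay below Serpina3n in replicate 1 and above it in replicates 2 and 3, and in each degenerated library it lay below Serpina3n.

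**Figure D3:**
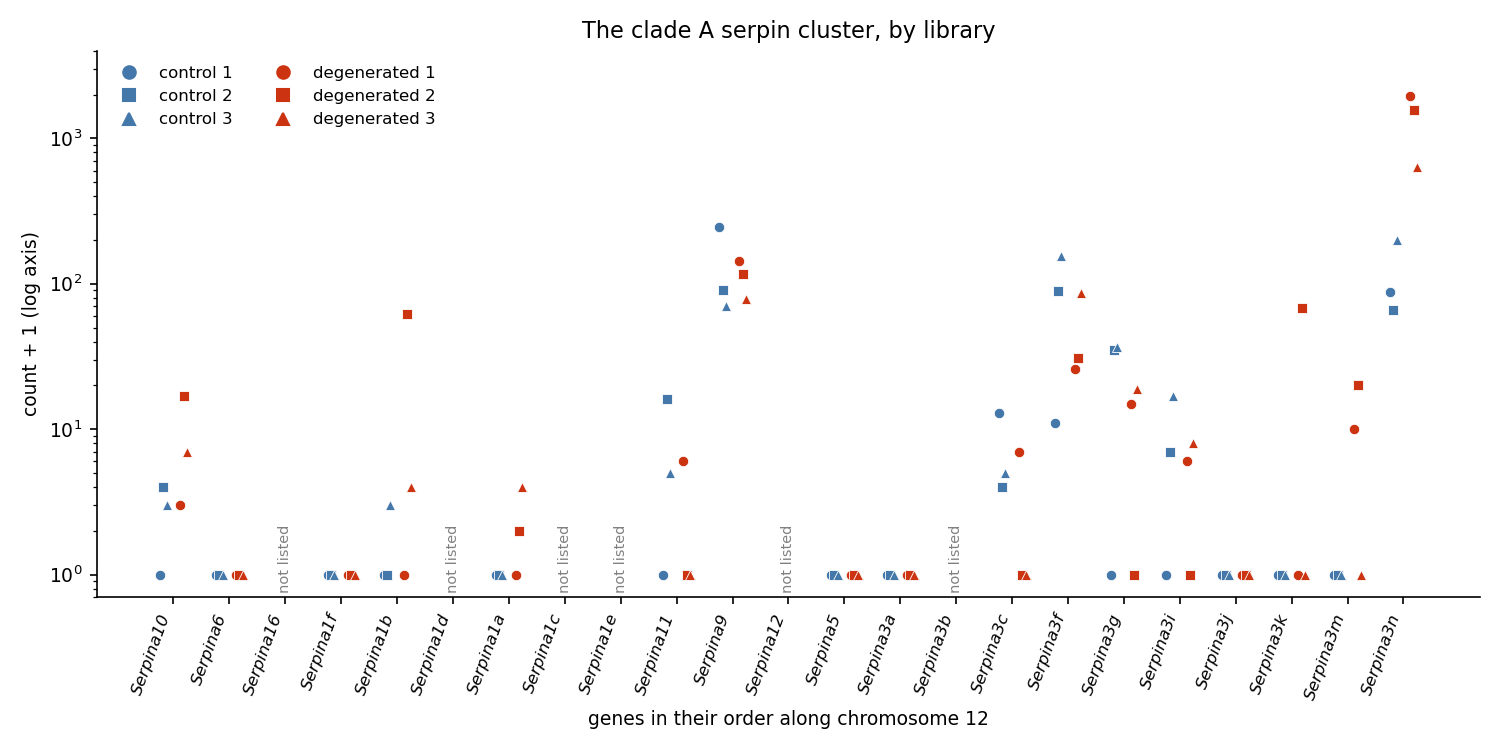
Counts plus 1 on a log axis for the 23 clade A serpin genes of chromosome 12 in their order along the chromosome, 1 symbol per library, with genes without a listed transcript marked. Serpina3n at the right end holds 65 to 200 counts in controls and 629 to 1955 in degenerated libraries, and Serpina3k and Serpina1b hold 67 and 61 counts in degenerated replicate 2 with 0 to 3 counts elsewhere.

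Further genes of the cluster had few counts. Serpina1b, an antitrypsin gene, had 61 counts in degenerated replicate 2 and at most 3 in any other, and Serpina10, which inhibits coagulation factor X with protein Z, had 16 counts there and at most 6 elsewhere. Serpina11 went another way, with 0, 15 and 4 counts in controls and 5, 0 and 0 in degenerated libraries, and Serpina1a had 1 and 3 counts in degenerated replicates 2 and 3 only. Of 5 hepatocyte markers 2 were listed: albumin (Alb) had 0 counts in all 6 libraries, and Apoa1 had 4.09 CPM in degenerated replicate 2 and 0 to 1.64 CPM in the others. Serpina9, known from germinal centre B cells, was the other tested gene of the cluster, with 16.2, 6.30 and 4.403 CPM and 9.78, 8.17 and 6.16 CPM, overlapping groups and a log2 fold change of -0.16 (SE 0.541, adjusted p 0.943 in edgeR's test).

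The 250 bases before the RefSeq start site of Serpina3n (GRCm38.p6, chr12:104406458-104406707, + strand) are shown because Serpina3n was the called member, with the only motif match among those searched in capitals.
Serpina3n promoter: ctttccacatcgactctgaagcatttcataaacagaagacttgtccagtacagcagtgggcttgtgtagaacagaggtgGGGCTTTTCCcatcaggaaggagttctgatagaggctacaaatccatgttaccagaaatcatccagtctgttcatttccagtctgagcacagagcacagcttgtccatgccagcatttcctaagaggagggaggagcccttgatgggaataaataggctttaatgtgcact
The match, GGGCTTTTCC, begins 171 bases before the start site and has the NF-kB-type pattern searched for, which is GGG, any 2 bases and TTTCC. Motifs were searched on both strands in windows of 300 bases (250 before and 50 after the start), and 1.63% of 32851 promoters held this pattern. Motifs of STAT type (TTCNNNGAA, in 8.30% of promoters, and its narrower form TTCCNGGAA, in 1.15%, which overlaps it), AP-1 type (TGANTCA, 7.81%) and C/EBP type (TTGNNNCAA, 5.82%) had no match in the Serpina3n window. Among 14 promoters of 12 tested members, the STAT-type motif had a match in 4, both windows of Serpina3f among them. The NF-kB-type had a match in 2 (Serpina3n and Serpina3g), the C/EBP-type in 1 and the AP-1-type in 0. Serpina3g was not called, and Serpina3i, under the filter, also holds the NF-kB-type pattern. A match shows only that these letters are in the window.

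Serping1 encodes C1 inhibitor, which blocks the complement proteases C1r and C1s as well as kallikrein and factor XII. It had the highest mean level of the family in both groups, though Serpinh1 stood above it in degenerated replicates 2 and 3. The CPM of Serping1 were 417, 286 and 329 in controls and 551, 363 and 475 in degenerated libraries, with means of 344 ± 66.8 CPM and 463 ± 95.0 CPM (SD, n = 3). Degenerated replicate 2 lay below control replicate 1, so the groups overlapped. The log2 fold change was 0.43 (SE 0.209, unadjusted p 0.0861, adjusted p 0.576 in edgeR's test) and did not pass. By transcript, the coding Serping1-201 held 384, 262 and 310 CPM against 432, 337 and 374 CPM. The processed transcript Serping1-203 held 27.7, 22.5 and 13.3 CPM against 115, 21.1 and 97.6 CPM, high in degenerated replicates 1 and 3 only.

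Early complement genes, whose products C1 inhibitor acts on or beside, included 4 called upregulated. Of all genes tested, 2.01% were. This list was chosen with earlier results of these data known, so its share of calls is no independent evidence. The 8 tested of a list of 11 all had log2 fold changes above 0, with a median of 0.59. C4b, the complement component cleaved by C1s, stood at 204, 112 and 181 CPM in controls and 618, 447 and 517 CPM in degenerated libraries (log2 fold change 1.67, adjusted p 0.204 in edgeR's test). C4a followed it at 8.87, 6.01 and 7.59 CPM and 24.5, 16.6 and 20.0 CPM, though reads of these near-identical neighbours may be split between them. C1q subunits, made by macrophages and microglia, stood at 203, 171 and 175 CPM against 324, 247 and 311 CPM for C1qb and 172, 151 and 173 CPM against 287, 209 and 269 CPM for C1qc. For these 4 genes no degenerated library overlapped a control. Macrophage markers summed to 544, 633 and 596 CPM in controls and 826, 632 and 848 CPM in degenerated libraries. This sum includes C1qb and C1qc themselves, so it is no separate measure of macrophage RNA. The part of macrophages in the complement values was not tested. C2, C3, C1s1 and Masp1 did not pass.

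Serpinh1 encodes HSP47, a chaperone of the endoplasmic reticulum that binds procollagen and inhibits no protease. Its CPM were 324, 77.3 and 319 in controls and 420, 364 and 488 in degenerated libraries, with means of 240 ± 141 CPM and 424 ± 62.0 CPM (SD, n = 3). All degenerated libraries lay above all controls, but control replicate 2 stood far below the others. The log2 fold change was 0.82 (SE 0.523, unadjusted p 0.167, adjusted p 0.666 in edgeR's test) and fell to 0.40 without that library. The transcripts that carried the counts also differed. Serpinh1-203 held 99.4, 66.2 and 309 CPM in controls and 406, 352 and 471 CPM in degenerated libraries, whereas control replicate 1 had 114 CPM on Serpinh1-202 and 94.3 CPM on Serpinh1-205, which stayed at or below 8.98 and 1.13 CPM elsewhere.

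Of 12 tested genes of procollagen processing, 6 had log2 fold changes above 0 and 6 below, with a median of -0.03. Called upregulated was 1 of them, next to 2.01% of all genes tested. The 1 called gene was P4ha1, a prolyl hydroxylase subunit with 1 of its 3 annotated transcripts listed, at 0 CPM in all controls and 5.13, 34.1 and 10.02 CPM in degenerated libraries. P4ha1 passed the filter on low counts only through the degenerated libraries, where it was high, so its call is no evidence about the list. Col1a2, a chain of type I collagen, had 1608, 1505 and 1253 CPM in controls and 991, 864 and 1292 CPM in degenerated libraries (log2 fold change -0.47, adjusted p 0.496 in edgeR's test). Col4a1, a chain of the type IV collagen of basement membranes, had 158, 123 and 54.4 CPM in controls and 218, 219 and 192 CPM in degenerated libraries, with no overlap and a log2 fold change of 0.91 (SE 0.375, unadjusted p 0.0512, adjusted p 0.517 in edgeR's test) that did not pass.

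**Figure D4:**
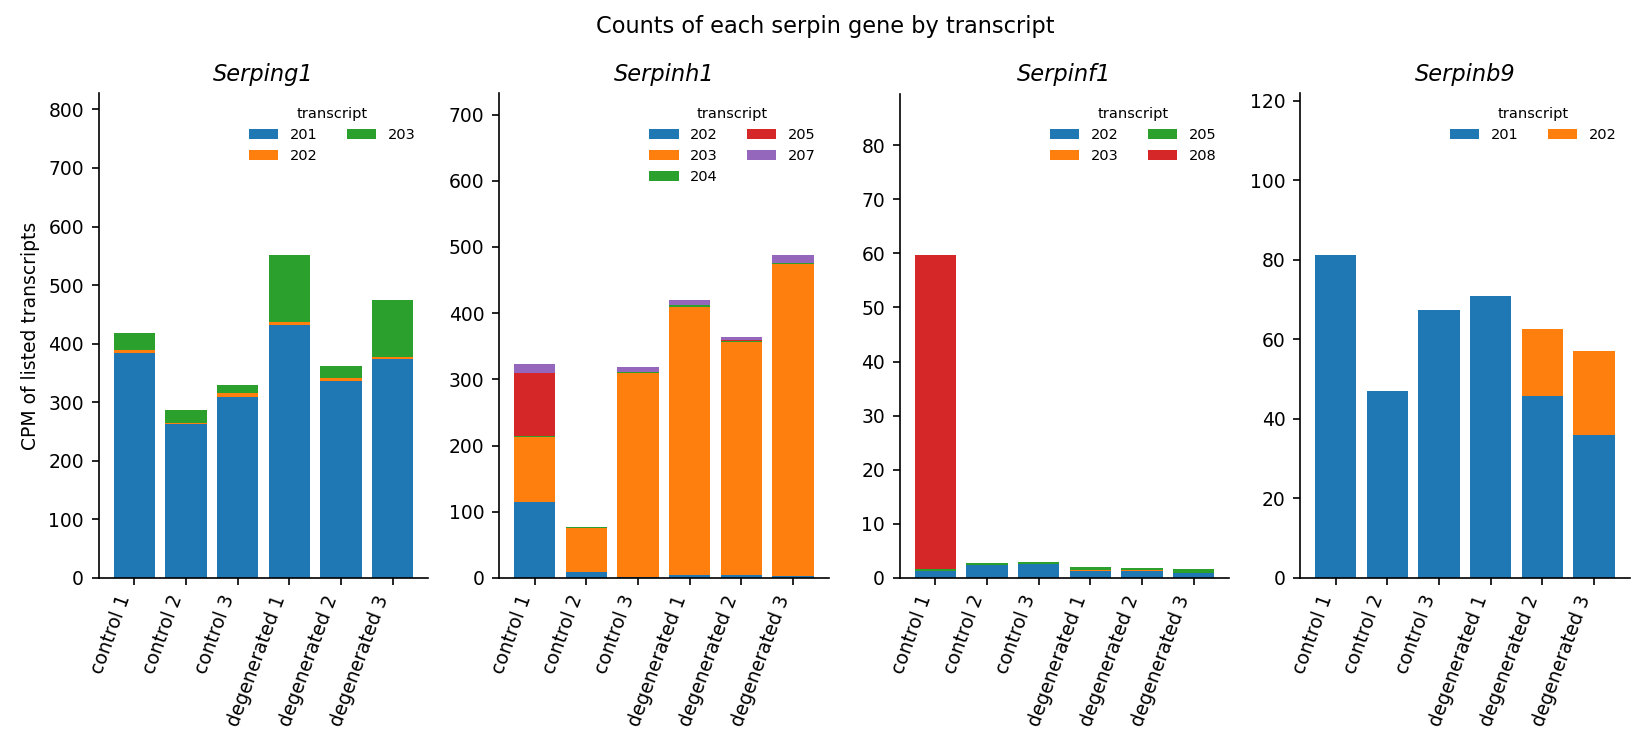
CPM of each listed transcript, stacked per library from 0, for Serping1, Serpinh1, Serpinf1 and Serpinb9. Serping1-203 is large in degenerated replicates 1 and 3 (115 and 97.6 CPM), Serpinh1 uses other transcripts in control replicate 1 than elsewhere, Serpinf1 consists almost wholly of Serpinf1-208 in control replicate 1 (58.0 CPM), and Serpinb9-202 holds 17.0 and 21.1 CPM in degenerated replicates 2 and 3 and under 0.1 CPM elsewhere.

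Serpinf1 encodes pigment epithelium-derived factor, a secreted serpin that supports neurons, inhibits vessel growth and does not inhibit proteases. Its CPM were 59.7, 2.76 and 2.87 in controls and 2.05, 1.83 and 1.58 in degenerated libraries, and the log2 fold change was -3.57 (SE 1.36, unadjusted p 0.0388, adjusted p 0.485 in edgeR's test). The size of this difference came from 1 library. Control replicate 1 had 902 counts, of which 876 fell on Serpinf1-208, a transcript annotated to nonsense-mediated decay that had 0 counts in every other library. Without control replicate 1 the log2 fold change was -0.64 and the adjusted p 0.519. Of the transcripts annotated as protein-coding, Serpinf1-202 held 18, 33 and 40 counts in controls and 20, 17 and 11 in degenerated libraries and Serpinf1-203 held 1 to 3 counts, while Serpinf1-201 was not listed.

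Serpini1, neuroserpin, and Serpine2, glia-derived nexin, are the family's inhibitors of plasminogen activators and thrombin in nervous tissue. Serpini1 stood at 244, 208 and 312 CPM in controls and 221, 261 and 214 CPM in degenerated libraries, nearly all on the coding transcript Serpini1-201. The groups overlapped, with means of 255 ± 52.8 CPM and 232 ± 25.5 CPM (SD, n = 3) and a log2 fold change of -0.14 (SE 0.176, unadjusted p 0.467, adjusted p 0.838 in edgeR's test). Over the same libraries the summed SGN markers were lower in every degenerated library than in any control, and their part in the Serpini1 level was not tested. Serpine2 was low, at 1.46, 1.70 and 1.85 CPM and 1.85, 1.76 and 2.999 CPM (log2 fold change 0.40, SE 0.365, adjusted p 0.775), with most counts on the protein-coding Serpine2-203 and Serpine2-204, while the protein-coding Serpine2-201 was not listed.

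Serpinf2, the inhibitor of plasmin, had 0, 2 and 10 counts in controls and 28, 8 and 0 counts in degenerated libraries, under the filter. Of 5 tested genes of plasminogen activation, 3 had log2 fold changes above 0 and none was called. Plat, the tissue plasminogen activator that neuroserpin inhibits, stood at 271, 149 and 176 CPM in controls and 362, 278 and 275 CPM in degenerated libraries. Its groups did not overlap, and its log2 fold change of 0.62 (SE 0.252, unadjusted p 0.0503, adjusted p 0.516 in edgeR's test) did not pass. S100a10, a plasminogen receptor subunit, overlapped between groups at 153, 183 and 226 CPM and 224, 192 and 249 CPM.

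Serpind1, heparin cofactor II, inhibits thrombin. Its CPM were 9.47, 37.9 and 32.9 in controls and 10.9, 35.0 and 20.8 in degenerated libraries, lowest in the libraries numbered 1 of both groups, with a log2 fold change of -0.26 (SE 0.633, adjusted p 0.915 in edgeR's test). Serpinc1, antithrombin, had 121 counts in control replicate 1 and 0 to 21 counts elsewhere, and 58.8% of the 50-base windows of its most counted transcript are shared with its neighbour Zbtb37, so those counts may belong to either gene. Among coagulation genes 5 were tested, 2 above 0 and 3 below, and none was called. F3, tissue factor, the trigger of coagulation, stood at 257, 216 and 256 CPM and 324, 318 and 215 CPM. Thrombomodulin (Thbd), the endothelial thrombin receptor, stood at 286, 141 and 116 CPM and 297, 192 and 197 CPM. The groups of both overlapped.

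Clade B serpins act inside cells and protect them from proteases that leak from granules and lysosomes. Serpinb6a, whose human counterpart SERPINB6 is a deafness gene, was the most abundant of them at 152, 136 and 202 CPM in controls and 218, 151 and 160 CPM in degenerated libraries. The groups overlapped, with means of 163 ± 34.8 CPM and 176 ± 36.3 CPM (SD, n = 3) and a log2 fold change of 0.11 (SE 0.213, adjusted p 0.894 in edgeR's test). Most of it was the coding Serpinb6a-201, at 112 to 171 CPM in controls and 114 to 184 CPM in degenerated libraries. Serpinb6c, its neighbour on chromosome 13, was at 1.87 ± 0.812 CPM and 2.12 ± 0.657 CPM (SD, n = 3). Serpinb6b had 159 counts in control replicate 3, nearly all on a transcript annotated to nonsense-mediated decay, and 1 to 6 counts elsewhere, and control replicate 3 was also the library with muscle marker RNA, whose part was not tested.

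Serpinb9, an inhibitor of granzyme B, stood at 81.2, 47.0 and 67.4 CPM in controls and 70.8, 62.7 and 57.1 CPM in degenerated libraries. Its total did not pass the test, at a log2 fold change of -0.04 (SE 0.227, adjusted p 0.967 in edgeR's test). Within that total the transcript Serpinb9-202 held 0, 1 and 1 counts in controls and 0, 241 and 267 counts in degenerated libraries, so it appeared in 2 of 3 degenerated libraries, while the other transcript, Serpinb9-201, held 81.2, 47.0 and 67.3 CPM and 70.8, 45.7 and 36.0 CPM. Both are annotated as protein-coding. The difference between transcripts was not tested.

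Serpinb1a, an inhibitor of neutrophil elastase and cathepsin G, was low in all libraries. Its CPM were 0.331, 0.707 and 0.957 in controls and 1.92, 1.48 and 6.55 in degenerated libraries. The groups did not overlap, and degenerated replicate 3 stood apart from the others. The log2 fold change was 2.30 (SE 0.748, unadjusted p 0.0213, adjusted p 0.421 in edgeR's test) and 1.34 without that library. It was not called, though DESeq2, edgeR's exact test and a fit with a term for the libraries rich in marrow markers put it past the criteria. Its counts, 5, 10 and 15 against 28, 21 and 83, lay on a transcript with a retained intron and a processed transcript, and the coding transcripts Serpinb1a-201 and Serpinb1a-202 were not listed. Neutrophils express this gene, and their marker RNA summed to 248, 13509 and 6674 CPM in controls and 637, 1946 and 4675 CPM in degenerated libraries. Marker RNA and Serpinb1a were both lowest in control replicate 1 and highest among the degenerated libraries in replicate 3. In control replicates 2 and 3 marker RNA was higher than in degenerated replicates 1 and 2, and Serpinb1a was lower. The part of neutrophils in the result was not tested, and the term for marrow-rich libraries, chosen after seeing the data, does not measure it.

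The other clade B genes with counts were under the filter. Serpinb5, maspin, had 9 counts in each of degenerated replicates 2 and 3 and none elsewhere, and Serpinb1c, Serpinb6e and Serpinb9b had 0 to 8 counts per library. Of the 26 clade B members, 4 were tested. Granule serine proteases include targets of Serpina3n, Serpinb1a and Serpinb9. Of 11 such genes, 7 had a listed transcript, 2 of these were tested and none was called. Neutrophil elastase (Elane) and cathepsin G (Ctsg) had no listed transcript, so their levels are not known here. Prtn3, proteinase 3 of neutrophils, stood at 0.596, 150 and 57.3 CPM in controls and 12.04, 12.04 and 59.98 CPM in degenerated libraries, highest in the same libraries as the neutrophil markers. Cathepsin B (Ctsb), a lysosomal protease, stood at 1953, 1718 and 1950.4 CPM against 2327, 2209 and 2405 CPM, with no overlap and a log2 fold change of 0.30 that did not pass (unadjusted p 0.0307, adjusted p 0.463 in edgeR's test).

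Levels of different genes were compared per length, as CPM per kilobase of transcript, summed over a gene's listed transcripts. On this scale the order of the family in controls was led by Serping1 at 206 ± 40.1, Serpinh1 at 118 ± 69.5, Serpinb6a at 116 ± 24.9 and Serpini1 at 62.4 ± 13.1 (mean ± SD, n = 3). Serpinh1 and Serpinb6a did not differ beyond their spread. The same 4 genes led in degenerated libraries, at 304 ± 80.2, 207 ± 31.6, 125 ± 22.7 and 57.0 ± 6.60. Serpina3n rose on this scale from 3.73 ± 2.14 to 47.5 ± 21.1 and from rank 9 of the 31 members with counts to rank 5, next to Serpini1. The gap between these neighbours depends on the length used: with the mean length of the listed transcripts Serpini1 stood at 88.1 in degenerated libraries and Serpina3n still at 47.5. Serpinf1 held rank 5 in controls at 24.2 ± 33.3, from 62.7 in control replicate 1 against 4.85 and 5.03 in the others, and rank 10 in degenerated libraries at 3.60 ± 0.352. Serpinb9 stood at 19.2 ± 5.06 and 18.6 ± 2.1 and Serpind1 at 12.2 ± 6.92 and 10.2 ± 5.53.

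Serpina3n is also an acute-phase gene, and genes of the acute phase and of STAT3 signalling were examined beside it. Of 22 tested, 12 had log2 fold changes above 0 and 10 below, with a median of 0.21, and 5 were called upregulated. The share over all genes tested was 2.01%. This list too was chosen with earlier results of these data known, so the 2 shares are no independent test. C4b is among the 5 and, like C3, is also on the early complement list, so its call is counted in both. Stat3, the transcription factor of the interleukin-6 pathway, stood at 198, 216 and 218 CPM in controls and 362, 351 and 332 CPM in degenerated libraries. It had the narrowest spread of the called genes here, with a log2 fold change of 0.73 (SE 0.0941, unadjusted p 0.000220, adjusted p 0.138 in edgeR's test). Lif, a cytokine that signals through this pathway, stood at 2.65, 4.74 and 2.42 CPM and 9.10, 16.8 and 11.8 CPM (log2 fold change 1.94). Ceruloplasmin (Cp), a copper-binding oxidase, stood at 180, 245 and 286 CPM and 442, 439 and 427 CPM (0.88), and Lbp, which binds bacterial lipopolysaccharide, at 8.08, 6.72 and 7.21 CPM and 14.4, 15.7 and 12.6 CPM (0.96). In each of these genes every degenerated library was above every control.

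Osmr, the oncostatin M receptor, was the other gene of this list whose degenerated libraries all lay above the controls, at 1.65, 0.212 and 0.766 CPM and 2.39, 2.39 and 3.31 CPM, and its log2 fold change of 1.61 (SE 0.691, unadjusted p 0.0579, adjusted p 0.542 in edgeR's test) did not pass. Lifr, the receptor for Lif, was lower in every degenerated library at 353, 332 and 346 CPM and 296, 269 and 291 CPM (-0.27, not called). Gfap, an intermediate filament of astrocytes and of some Schwann cells, stood at 30.8, 18.4 and 24.8 CPM and 90.9, 49.2 and 20.8 CPM. Its degenerated libraries had the same order as those of Serpina3n, with replicate 1 highest and replicate 3 lowest. Stat3, Cp, F3 and Timp3 had this order too, and Lif and Lbp did not, so it is not particular to Gfap. Degenerated replicate 3 of Gfap lay within the controls, and the log2 fold change of 1.12 (SE 0.538, adjusted p 0.576 in edgeR's test) did not pass. Lcn2, an acute-phase protein that neutrophil precursors also make, stood at 7.15, 48.5 and 33.4 CPM and 19.4, 15.8 and 22.3 CPM. Among protease inhibitors outside the serpin family 19 were tested, 11 above 0 and 8 below with a median of 0.11, and none was called. Degenerated libraries all lay above the controls in 4 (A2m, Spint1, Spint2 and Timp2) and below them in 1 (Tfpi). Such a separation was seen in 10.3% (above) and 7.37% (below) of all genes tested. A2m, the broad protease trap alpha-2-macroglobulin, stood at 143, 139 and 146 CPM and 296, 241 and 164 CPM, with no overlap and a log2 fold change of 0.71 (SE 0.218, unadjusted p 0.0168, adjusted p 0.410 in edgeR's test). Its degenerated libraries had that same order. Spint2 stood at 229, 231 and 297 CPM and 303, 339 and 444 CPM (0.52), and Timp3, an inhibitor of metalloproteases, at 1549, 1159 and 1321 CPM and 1951, 1674 and 1340.2 CPM (0.30). Tfpi, which inhibits tissue factor, had the largest fold of these inhibitors and was lower, at 2.65, 6.23 and 4.21 CPM and 2.26, 0.704 and 0.947 CPM, with no overlap and a log2 fold change of -1.73 (SE 0.582, unadjusted p 0.0240, adjusted p 0.437 in edgeR's test) that did not pass. Its level rests on 1 of 10 annotated transcripts.

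**Figure D5:**
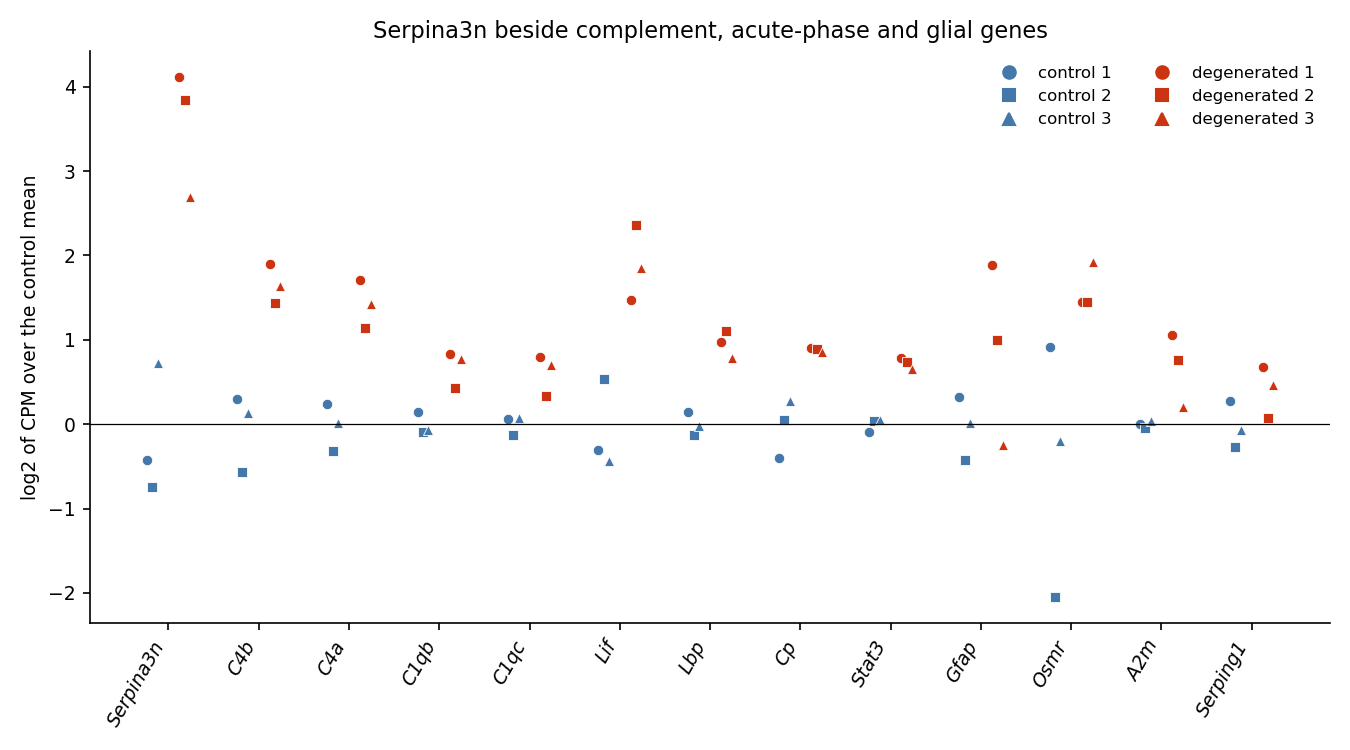
Log2 of CPM over the mean CPM of the controls, per library, for Serpina3n and for complement, acute-phase, STAT3-pathway, glial and inhibitor genes. The degenerated libraries of Serpina3n lie at 49.6 to 134 CPM against a control mean of 7.71 CPM, the farthest of these genes, and those of Stat3, Cp and Lbp lie close together above all controls.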

How the data were processed

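The authors deposited 1 table of raw counts per Ensembl transcript for 6 libraries, without normalization. The study names Hisat2 for alignment and StringTie to evaluate expression, while the submitters' processing notes name Bowtie 0.12.2 and the builds mm8 and mm10. Those sources do not state the annotation or which tool wrote the deposited counts. Counts of the listed transcripts were summed per gene with GENCODE M21 (GRCm38). Of 65535 transcripts, 65272 matched and 263, with 0.125% of counts, did not and were left out. The table lists only a part of most genes' transcripts, so a shift between transcripts can change a gene's counted part, and the kit named in the labels does not mark strand, so overlapping antisense reads cannot be told apart. Depth was 12480876 to 15549319 counts per library.

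All 6 libraries (3 control, 3 degenerated, by the labels' group) entered edgeR 4.0.16 in R 4.3.3 with filterByExpr, TMM normalization and the robust quasi-likelihood F test without covariates, over all genes, and p-values were adjusted by the Benjamini-Hochberg method. SE is the log2 fold change over the square root of F. The design assumed counts per gene. Steps were tested on simulated data. A count of 0 was not read as absence.

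Named were Serpina3n, members called, members at an unadjusted p under 0.05, members with a mean of at least 10 CPM and the A3 relatives of Serpina3n, and of each list the called genes and up to 3 with the highest CPM. Gfap, Lcn2, Osmr, Col4a1, Tfpi and other genes or members outside this rule were named after their values were seen. Members and lists were chosen with earlier results of these data known. Values of some members are not reported here. Promoters came from RefSeq (GRCm38.p6), with 61 windows for 52 members. Alternatives were edgeR's exact test, DESeq2 1.42.0, voom of limma 3.58.1, RLE and upper-quartile normalization, no filter, a mean count of at least 10, a replicate block, genes with every transcript listed, each library left out, for levels per length the mean length of listed transcripts, and, chosen after seeing the data, a term for the 3 marrow-rich libraries (control replicates 2 and 3, degenerated replicate 3).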

Additional observations from a re-analysis of the deposited data

How the results depend on the processing

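Serpina3n was called in all 16 alternatives, with log2 fold changes of 3.37 to 4.23, also the range with 1 library left out. The number of called members stayed at 1 in 13 alternatives, each library left out included (1 to 1). It was 2 with DESeq2 and 2 with the term for marrow-rich libraries (Serpinb1a added), and 3 with edgeR's exact test (Serpinb1a and Serpinf1 added). Called genes of the pathway lists, 9 of 73 tested, numbered 5 to 9 with 1 library left out (5 without control replicate 3) and 2 of 13 among genes with every transcript listed, where fewer genes are tested. Over all genes, calls numbered 284 upregulated and 101 downregulated (2.73% of genes tested), and 479 and 306 with DESeq2.

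Members near 0 changed sign. Serpinb9 ranged from -0.23 to 0.14 on the log2 scale with 1 library left out (0.14 without control replicate 1, 0.03 without degenerated replicate 3). Serpinb6a ranged from -0.079 to 0.28 (-0.01 without control replicate 2, -0.079 without degenerated replicate 1) and Serpini1 from -0.27 to 0.027 (0.027 without control replicate 3). Serpind1 ranged from -0.76 to 0.069 (0.069 without control replicate 2, 0.05 without degenerated replicate 1) and was 0.25 with the term for marrow-rich libraries. The cause was not tested. With the mean length of listed transcripts, degenerated levels per length moved by over 1 SD for Serpini1 (57.0 to 88.1), Serpinh1 (207 to 265), Serpinb6a (125 to 157) and Serpinf1 (3.60 to 2.71), and Serpina3n kept 47.5.

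Deviations of same-numbered libraries were weakly correlated at most (0.160, -0.0905 and 0.0674). Differently numbered libraries ranged from -0.276 to 0.235. No pairing by number was seen, but correlations this weak cannot exclude one. With the replicate block 160 genes were called upregulated and 58 downregulated, Serpina3n stayed called at a log2 fold change of 3.73 (unadjusted p 0.00713, adjusted p 0.602 in edgeR's test), and no other member was called.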

Other observations

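Serpinb10, annotated in GENCODE M21 as a polymorphic pseudogene and therefore not among the members, had 1, 48 and 33 counts in the controls and 0, 19 and 32 counts in the degenerated libraries. The counts were highest in control replicates 2 and 3 and degenerated replicates 3 and 2, and the groups overlapped.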
